A study of Mus musculus with 10 samples.

Results

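The cytosolic ribosomal protein genes encode the proteins of the small and the large subunit of the ribosome that translates messenger RNA outside mitochondria. They were chosen by symbol (Rpl or Rps followed by a number, Rplp0, Rplp1, Rplp2 and Rpsa, without the Rps6k kinases and the pseudogenes named -ps), through the RefSeq accession of each probe. This gave 85 genes of the 20972 that could be named, measured by 173 of the 55681 probes of the array. Of the 85, 52 belong to the large and 33 to the small subunit, and 53 had several probes, of which the brightest stood for the gene unless stated otherwise. The RefSeq table held 90 symbols of this form, and 5 of them, Rpl37 among them, had no probe. Rps4l met the symbol rule although RefSeq annotates it as a transcribed pseudogene.

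RNA was measured on 10 one-colour Agilent arrays. The cells were LSK cells (Lin-, Sca-1+ and c-Kit+), a bone marrow gate in which stem cells and the earliest progenitors of blood are found, taken from C57BL/6 transplant recipients as CD45.2+ donor cells. KO cells carried Cre-ERt and floxed Ezh2 (Ezh2fl/fl) and WT cells carried Cre-ERt alone, so both genotypes carried the Cre, and tamoxifen was given to delete Ezh2, the H3K27 methyltransferase of Polycomb repressive complex 2. At 3 months after transplantation there was 1 KO array without disease and 1 WT array. At 9-12 months there were 2 KO arrays of mice with myelodysplastic syndrome (MDS), 3 with overlapping MDS and myeloproliferative neoplasm (MDS/MPN), 1 with undetermined disease and 1 labelled with several of these diseases and as mixed, against 1 WT array. The labels used here name neither the promoter of the Cre nor the number of mice behind the WT, mixed and 3-month KO arrays. With 1 WT array at each time, the spread of WT cells at a given time was not measured. The tests took their error from the KO arrays, except that of all KO arrays against both WT arrays, where the residuals of the WT arrays entered too. The labels of 2 MDS/MPN arrays add TC (replicate 1) and CMMoL (replicate 3), which they do not explain, and the 3 arrays were taken as 1 group.

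Values are log2 processed intensities over the 75th percentile of the array. Slide 1 held the KO and WT arrays whose scanner files carry the 3-month label and slide 2 the other 8. The deposited value table gives the time labels of these 2 arrays and of the mixed KO and WT arrays of slide 2 the other way round, with the same genotypes. The scanner files' times are used here. The 3 MDS/MPN arrays and the undetermined array lay on line 2 of slide 2 and the MDS, mixed and WT arrays on line 1, so MDS/MPN and line cannot be told apart. The arrays had 32.5% to 47.5% of their probes well above background, and 0 of the ribosomal protein probes were saturated. Ezh2 read 2.71 on the KO and 2.14 on the WT array at 3 months, and 2.13 to 3.35 on the 7 KO arrays and 2.63 on the WT array at 9-12 months. Of the KO arrays at 9-12 months 5 read below WT and the fitted difference of the 6 arrays of single mice was -0.15 ± 0.52 (SE). Whether the probe lies in the deleted part was not analysed here, so it checks nothing about the deletion. The gate genes Kit, Ly6a (Sca-1), Cd34, Flt3 and Ptprc were well above background on all 10 arrays, and so were the lineage antigens Cd3e, Cd4 and Itgam, whereas Cd8a was above background on 0 arrays.

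Each ribosome holds a single copy of nearly every one of these proteins, so their messenger RNAs are usually made in step, and they are among the most abundant in dividing cells. In mammals most of them begin with a C followed by an unbroken run of pyrimidines, the 5′ terminal oligopyrimidine (TOP) tract, through which mTOR and Larp1 switch their translation. Blood formation is known to be sensitive to their dosage: loss of one allele of RPS19 or of several other ribosomal protein genes causes Diamond-Blackfan anemia in humans, and loss of one RPS14 allele contributes to the anemia of the 5q- syndrome, a form of MDS. Unassembled Rpl5 and Rpl11 bind Mdm2 and so stabilise p53.

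RefSeq start sites (GRCm38.p6) were at hand for 64 of the 85 genes, in 76 windows, and the sequences from 10 bases before to 15 bases within the transcript are shown for 7 of them. They are a large subunit protein (Rpl7a), a stalk protein (Rplp2) and the genes on which the results below turn. Capitals mark the longest run of C and T that touches or lies within 5 bases of the start, which is the 11th letter.
Rpl7a (chr2:26910797-26910821, plus strand): CTCTTCTTTCTTTCTCCagcagccg
Rplp2 (chr7:141447641-141447665, plus strand): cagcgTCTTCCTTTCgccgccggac
Rps24 (chr14:24490668-24490692, plus strand): gctggggTCCTTCCTTgcgcgttga
Rps27 (chr3:90213634-90213658, minus strand): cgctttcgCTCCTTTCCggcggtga
Rps27l (chr9:66946076-66946100, plus strand): CCTCCCCgccgcctctatcccggaa
Rpl22l1 (chr3:28805498-28805522, plus strand): gcgcaagcccgTTCTCTTCCCacgg
Rps2 (chr17:24720053-24720077, plus strand): gtcgagatctcgcgCTTCTTggagc
The run spanned the start in Rpl7a, Rplp2, Rps24 and Rps27, ended before it in Rps27l, and began after it in Rpl22l1 and Rps2. Over all windows of ribosomal protein genes the median run was 4.5 bases, against 3 bases over all 32851 windows of the genome, and 32.9% against 9.72% of windows had a run of at least 8 bases. CTTTC stood between 10 bases before and 20 bases after the start, on the gene's strand, in 19.7% of the ribosomal protein windows against 3.74% of all windows. CCTTT did so in 11.8% against 3.20% and CTTTT in 6.58% against 3.10%. CCTTT overlaps the other pair by up to 4 letters. In the whole window, from 250 bases before to 50 bases after the start and on either strand, CCGGAAG was found in 34.2% against 8.86% and ATGGCG in 31.6% against 8.93%. A match of letters is a description and not a site.

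Messages of the ribosomal proteins were well above background almost without exception. The brightest probe passed on all 10 arrays for 82 of the 85 genes, and the others were Rpl3l and Rpl10l (1 array each) and Rpl39l (3 arrays). The highest median spot signal of the 173 probes reached 53.1% to 62.7% of the saturation value of its array. At 3 months the median over the 85 genes was 10.72 on the KO array and 10.47 on the WT array. At 9-12 months it was 10.07 on the mixed array, 10.15 and 10.07 on the MDS arrays, 10.43, 8.96 and 10.51 on the MDS/MPN arrays and 10.58 on the undetermined array, against 10.00 on the WT array. One array, MDS/MPN replicate 2, thus stood below all others and the other 6 KO arrays at 9-12 months had medians above that of WT, although on MDS replicate 2 most single genes (56 of 85) were below it.

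The 2 WT arrays differed from each other by more than 7 of the 8 KO arrays did from the WT array of their slide. WT at 9-12 months minus WT at 3 months was -0.51 at the median of the 85 genes, lower for 80 and higher for 5, whereas all features detected on every array differed by 0.07 at the median. This sets a scale for differences between single arrays, although slide and time cannot be told apart here.

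Without scaling between arrays the same medians were nearly level. The unscaled log2 intensity of the ribosomal protein genes lay between 16.91 and 17.32 at the median on all 10 arrays, a range of 0.42, whereas after division by the 75th percentile the range was 1.76, or 0.73 without MDS/MPN replicate 2. The 75th percentile itself was 302 intensity units on MDS/MPN replicate 2 and 78.7 to 144.8 on the other 9. It was 89.4 to 96.8 on the other line 2 arrays and 120.4 to 144.8 on line 1 of slide 2. Ribosomal protein levels over the percentile were lowest on MDS/MPN replicate 2, and higher on the other line 2 arrays than on line 1 of slide 2. Within line 1 of slide 2 the order was not inverse. There WT had the lowest percentile (120.4) and the lowest median (10.00), and MDS replicate 1 the highest of both (144.8 and 10.15). The part of the scaling in these levels was not tested.

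**Figure D1:**
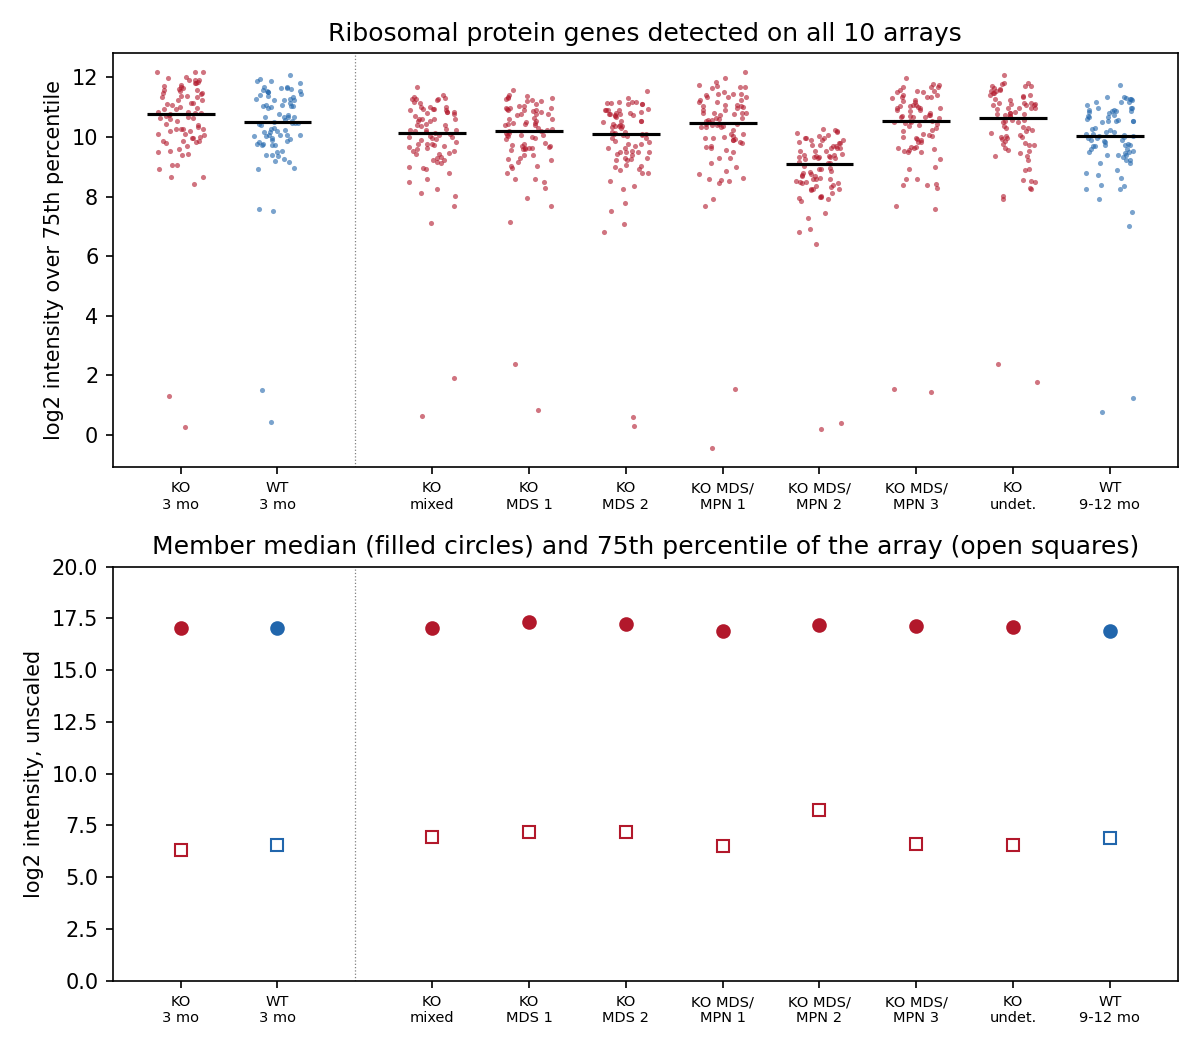
Upper panel: log2 intensity over the 75th percentile of the array (y axis) of the 82 ribosomal protein genes detected on all 10 arrays, each point a gene, with the median as a black bar, for KO arrays (red) and WT arrays (blue), with slide 1 left of the dotted line. Lower panel: the median of the 85 genes (filled circles) and the 75th percentile of the array (open squares), both as unscaled log2 intensity. The circles stay between 16.91 and 17.32 while the square of MDS/MPN replicate 2 stands above the others.

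The first comparison asked whether ribosomal protein genes differ between Ezh2-deleted and WT LSK cells at 9-12 months, with the 6 KO arrays of single mice against the WT array. None of the 83 genes that passed the filter was called (limma, adjusted p under 0.05), and none had an unadjusted p under 0.05, where 0.587% of all 19595 features were called. The median KO minus WT difference was 0.03 (quartiles -0.07 and 0.11), with 46 genes higher and 37 lower in KO, against -0.01 over all features. All features include dim ones. Limited to the 14407 features detected on each array compared, the median was 0.05, against 0.03 for the 82 genes among them. No gene had its 6 KO arrays all above or all below the WT array, which 9.29% and 13.9% of all features did. In bulk samples, fewer cells of a type and less RNA per cell cannot be told apart.

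That median near 0 was made of arrays that moved in opposite directions. MDS/MPN replicate 2 was lower than WT for 83 of 85 genes, by -1.04 at the median, whereas the undetermined array (0.46, higher for 81), MDS/MPN replicates 1 (0.38, higher for 78) and 3 (0.36, higher for 80) were above it. The MDS arrays differed by 0.11 (higher for 69) and -0.06 (higher for 29). The features detected on every array had medians of the same sign. They were -0.33 on MDS/MPN replicate 2, 0.32 on the undetermined array and 0.18 and 0.19 on MDS/MPN replicates 1 and 3. On the MDS arrays they were 0.02 and -0.09. The direction of these shifts was thus not particular to the ribosomal protein genes. Without MDS/MPN replicate 2 the median of the comparison was 0.24, with 79 genes higher and 4 lower, and still none was called. With the time labels of the value table, which set the same KO arrays against the other WT array, it was -0.50, with 7 higher and 76 lower. Without scaling between arrays it was 0.15, with 70 higher and 13 lower. The unscaled median of the 85 genes was 17.20 on MDS/MPN replicate 2, above the 16.91 of WT. B cell genes were high on MDS/MPN replicate 2 and on the undetermined array, which lay at opposite ends for the ribosomal protein genes. Their median over the 3 of 12 detected on every array was 4.64 and 4.59 there, against 0.30 on the WT array. It was 2.57 on the mixed array, 1.01 and 0.23 in MDS, and 0.69 and -0.10 on MDS/MPN replicates 1 and 3. The part of B cells was not tested.

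Within an array the genes moved as a block. The middle 50% of the 82 or 83 KO minus WT differences spanned 0.16 and 0.15 on the MDS arrays and 0.20, 0.31 and 0.30 on the MDS/MPN arrays. Over the 14298 features detected everywhere it spanned 0.44 and 0.50 on the MDS arrays and 0.77, 0.99 and 0.80 on the MDS/MPN arrays. These differences share the WT array, and the features were not matched to the genes for intensity. Once each gene was taken relative to the median of the 85 on each array, the SD over the 10 arrays had a median of 0.14, against 0.51 before, and 62 of the 77 genes other than the paralogs had an SD under 0.2. Taking off their own median removes the shift of the whole array, scaling included, so the SD falls in part by construction. Rplp2, an acidic protein of the stalk that recruits elongation factors, followed the block within -0.16 to 0.03 on every KO array.

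**Figure D2:**
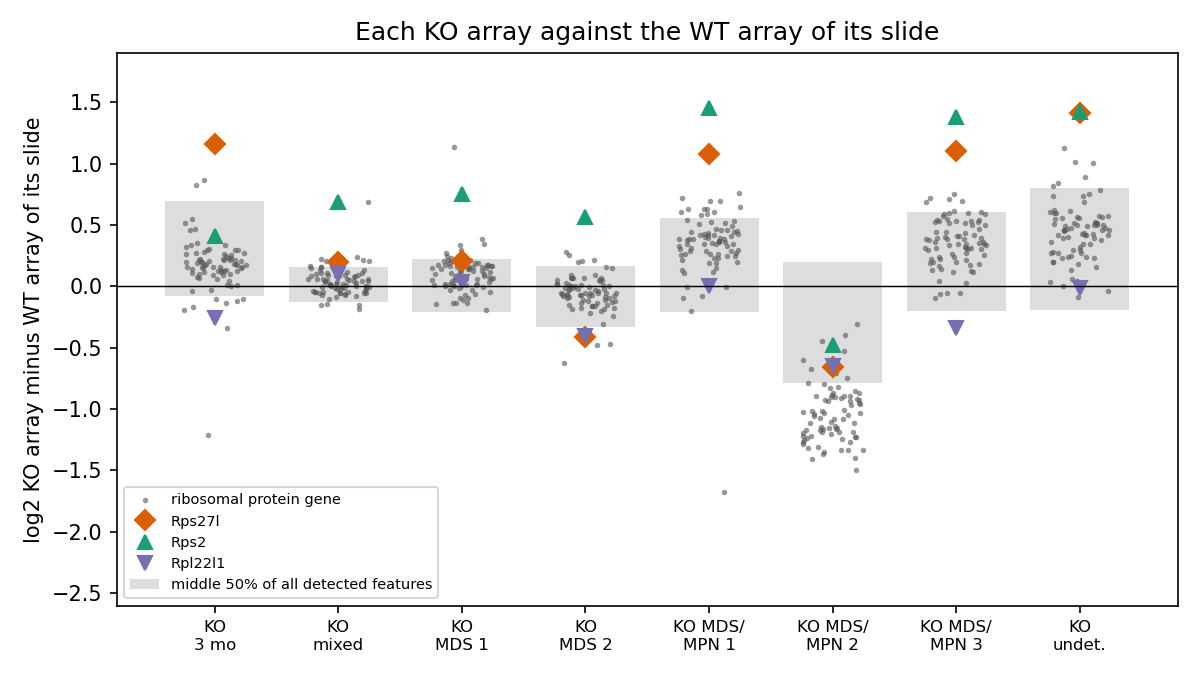
Log2 difference (y axis) between each KO array and the WT array of its slide for the ribosomal protein genes detected on all arrays (grey points), with Rps27l (diamonds), Rps2 (upward triangles) and Rpl22l1 (downward triangles) set apart, over bars that span the middle 50% of all detected features. The points form a narrow band in each array, around -1.04 on MDS/MPN replicate 2 and 0.46 on the undetermined array.

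The second comparison set MDS/MPN against MDS arrays within KO. The median difference was -0.13, with 13 genes higher and 69 lower in MDS/MPN, against -0.02 over all 20724 features, and 0 of 82 genes were called, where 0% of all features were (none of the 82 had an unadjusted p under 0.05). Without MDS/MPN replicate 2 the median turned to 0.35, with 77 genes higher and 6 lower, so 1 array set the direction. Only Rpl21 and Rps3a1, of the large and the small subunit, had all MDS/MPN arrays below the MDS arrays, which 12% of all features had, and 0 genes had them all above, as 7.74% of features had. Rps3a1 read 8.75, 7.85 and 8.58 on the MDS/MPN arrays and 8.80 and 8.79 on the MDS arrays, a difference of -0.40 ± 0.40 (SE). Rpl21 read 8.45, 7.95 and 8.38 on the MDS/MPN arrays and 8.596 and 8.515 on the MDS arrays.

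The third comparison took all 8 KO arrays against both WT arrays with the slide as a term. The median was 0.07, with 66 genes higher and 17 lower in KO, against 0.03 over all features, and 0 of 83 genes were called (limma), where 0% of the 22356 features were. None had an unadjusted p under 0.05. Limited to the 14298 features detected on all arrays, the median was 0.13, and the 82 genes among them lay below it with 0.07. The large subunit genes had a median of 0.08 (43 of 50 higher) and the small subunit genes one of 0.05 (23 of 33 higher). Both medians were below 0 with quantile normalization (-0.03 and -0.08) and with the percentile taken over detected probes (-0.13 and -0.16), so no direction can be given to either subunit.

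In the 3-month pair, 72 of the 85 genes read higher on the KO array, by 0.17 at the median. This was less than over all 22421 features, which differed by 0.23 at the median, with 62.1% higher. The features detected on every array differed by 0.31. Of the 83 measured genes 3 were at least 2-fold apart, where 24.9% of the 22421 features were. Without scaling the median of the genes was -0.09, against -0.04 over all features. The mixed KO array was above WT for 53 genes, by 0.04 at the median against 0.01 over all features. There 1 of 83 genes was at least 2-fold apart against 8.86% of features. These pairs have no replicates and no test. The later KO effect (9-12 months) less the earlier one (3 months) had a median of -0.13 over the genes and -0.23 over all features, with 0 of 83 genes called by limma and 0 with an unadjusted p under 0.05, where 0% of 23290 features were called. It was 0.25 without scaling.

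Among the proteins with a known part in anemia, 20 genes had been listed from Diamond-Blackfan anemia and the 5q- syndrome. In the third comparison 14 were higher and 6 lower in KO, with a median of 0.07 (-0.14 with the percentile over detected probes) and 0 called. In MDS/MPN minus MDS 3 were higher and 17 lower, with a median of -0.13. Without MDS/MPN replicate 2, 19 were higher and 1 lower, with a median of 0.34, and the third comparison gave 0.19 with 19 higher and 1 lower. Rps19, the small subunit protein most often mutated in Diamond-Blackfan anemia, read 9.59 on the KO and 9.50 on the WT array at 3 months. At 9-12 months it read 9.21 on the mixed array, 9.39 and 9.28 in MDS, 9.51, 8.11 and 9.64 in MDS/MPN and 9.56 on the undetermined array, against 9.22 in WT. Its KO values lay on both sides of WT, and the third comparison gave 0.05 ± 0.42 (SE, limma adjusted p = 0.999). Rps14, the 5q- gene, read 12.18 on the KO and 12.08 on the WT array at 3 months. Later, at 9-12 months, values were 11.68 on the mixed array, 11.57 and 11.54 in MDS, 12.18, 10.26 and 11.98 in MDS/MPN and 12.08 on the undetermined array, against 11.76 in WT. Both MDS arrays and the mixed array were below WT by 0.22 or less, and the difference over all KO arrays was -0.06 ± 0.48.

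Rpl5 and Rpl11, which with 5S RNA form the particle that binds Mdm2, did not move alike. Rpl5 was below WT on 6 of 8 KO arrays, with 8.92 on the KO and 8.95 on the WT array at 3 months. The values at 9-12 months were 8.25 mixed, 8.51 and 8.27 in MDS, 8.58, 7.45 and 8.29 in MDS/MPN and 8.31 undetermined, against 8.35 in WT. Rpl11 was above WT on 6 of 8 KO arrays. The all-KO differences were -0.08 ± 0.34 for Rpl5 and 0.12 ± 0.45 for Rpl11, each smaller than its SE, and the difference between the genes was not tested. The stalk genes Rplp0, Rplp1 and Rplp2 had all-KO differences of 0.08 ± 0.47, 0.09 ± 0.48 and 0.07 ± 0.43.

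Some paralogs departed from the block, with an SD over the 10 arrays, relative to the median of the 85, of 0.48 for Rps27l, 0.47 for Rpl7l1 and 0.38 for Rpl22l1. Among the common forms it was at most 0.36 (Rps2), and the 0.28 of Rpl36al lay within that. Paralogs are copies of ribosomal proteins that can stand in for, or act beside, the common form. Rps27l, which p53 is known to activate in human cells, read 8.67 on the KO and 7.51 on the WT array at 3 months. Among the 9-12 month arrays it read 7.68 on the mixed array, 7.69 and 7.07 in MDS, 8.56, 6.83 and 8.59 in MDS/MPN and 8.89 on the undetermined array, against 7.48 in WT. It was above WT on 6 of 8 KO arrays and above the block on 7 of 8, by 0.70 to 0.99 on the 3-month, undetermined and MDS/MPN replicate 1 and 3 arrays. Its all-KO difference was 0.69 ± 0.58 (limma adjusted p = 0.968), and 0.52 ± 0.39 (adjusted p = 0.998) relative to the median of the 85. Its common counterpart Rps27 differed from WT by -0.04 at 3 months and by 0.38 and 0.31 on MDS/MPN replicates 1 and 3.

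Rpl36al and Rpl7l1 had the same shape. Rpl36al read 8.41 in KO and 7.59 in WT at 3 months. At 9-12 months it read 7.11 mixed, 7.16 and 6.83 in MDS, 7.70, 6.40 and 7.70 in MDS/MPN and 8.01 undetermined, against 7.002 in WT. The 3-month, undetermined and MDS/MPN replicate 1 and 3 arrays were again those farthest above WT. Rpl7l1, a nucleolar relative of Rpl7, read 1.30 in KO and 0.44 in WT at 3 months, and 0.30 to 1.79 in KO against 0.78 in WT at 9-12 months. All-KO differences were 0.47 ± 0.44 for Rpl36al and 0.45 ± 0.47 for Rpl7l1, and neither was called. Rpl36a itself differed by -0.17 at 3 months.

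Rpl22l1, the paralog that Rpl22 is known to repress in mouse cells, was above WT on 3 of 8 KO arrays, by 0.10 at most. It read 8.67 in KO and 8.93 in WT at 3 months. Later, at 9-12 months, values were 8.02 mixed, 7.95 and 7.52 in MDS, 7.92, 7.27 and 7.58 in MDS/MPN and 7.91 undetermined, against 7.92 in WT. The all-KO difference was -0.21 ± 0.31, and -0.37 ± 0.36 relative to the block, neither called. It is one of the genes that turn on which WT array is used, since the value-table labels gave -1.24 at 9-12 months against -0.23 with the scanner labels.

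Rpl39l, in mouse known as a form of the male germ line, was near the limit of detection. It was well above background on both WT arrays (-2.11 at 3 months and -1.52 at 9-12 months) and on 1 of 8 KO arrays, MDS/MPN replicate 3 (0.19), the highest of all 10. The KO array at 3 months was at least 2.07-fold lower than WT and the mixed array at least 1.84-fold lower, against the lowest signal well above background on the KO array. The fitted all-KO difference of -2.18 ± 1.23 was not called and rests on values below background. Rps4l read 0.28 in KO and 1.49 in WT at 3 months, and -0.44 to 2.38 in KO against 1.24 in WT at 9-12 months. The muscle form Rpl3l and the testis form Rpl10l were above background on 1 array each and have no comparison.

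**Figure D3:**
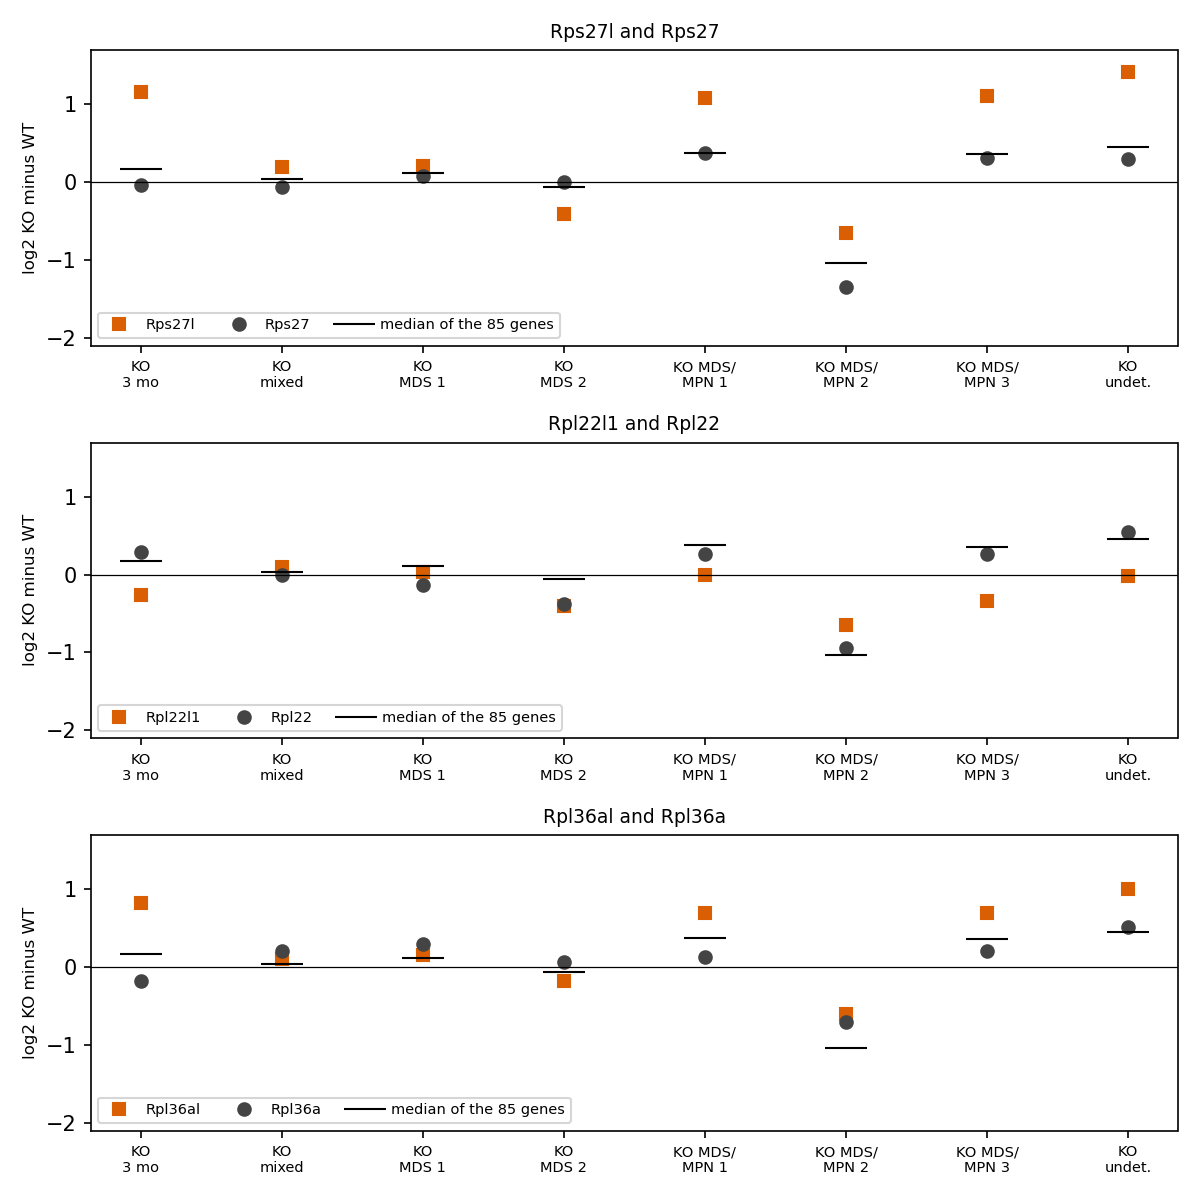
Log2 difference (y axis) between each KO array and the WT array of its slide for 3 paralogs (orange squares) and their common counterparts (grey circles), with the median of the 85 genes as a bar. Rps27l lies above Rps27 on 7 of the 8 arrays and Rpl22l1 below the bar on 6 of 8.

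Among the common forms, Rps2, a small subunit protein at the messenger RNA entry channel, stood highest. Its brightest probe read 10.60 on the KO and 10.18 on the WT array at 3 months. The values at 9-12 months were 10.20 mixed, 10.28 and 10.09 in MDS, 10.97, 9.04 and 10.90 in MDS/MPN and 10.94 undetermined, against 9.52 in WT. Thus 7 of 8 KO arrays were above WT and all 8 above the block, by 0.24 to 1.07. The KO minus WT difference at 9-12 months was 0.85 ± 0.71 (limma adjusted p = 0.9999). The second Rps2 probe gave smaller differences, with 0.09 on the mixed array where the first gave 0.68, so the low WT value of the brighter probe enters each of them. Rps21, a small subunit protein, was under the block on 8 of 8 KO arrays, with an all-KO difference of -0.11 ± 0.43. Rps2 and Rps21 were named for lying far from the members' median, so their side of the block follows in part from that choice. The KO arrays of a slide also share its WT array. Rpl6 (0.24 ± 0.37 over all KO arrays), Rpl23 (-0.08 ± 0.35) and Rps29 (-0.45 ± 0.46 in MDS/MPN minus MDS) were the other common forms named by the rule, and none was called.

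Different probes of a gene usually agreed. For the 51 genes with several probes above background on all arrays, the all-KO differences of the probes lay within 0.05 of each other at the median, but 4 genes had a gap over 0.5, Rps24, Rpl22 and Rpl15 among them. Rps24 encodes a small subunit protein that is mutated in some families with Diamond-Blackfan anemia, and its transcripts are alternatively spliced near the end of the coding sequence. Its 3 probes are annotated to 3 transcripts. The probe of NM_011297 read 10.11 on the KO and 11.62 on the WT array at 3 months. Among the 9-12 month arrays it read 10.65 mixed, 10.62 and 10.38 in MDS, 7.93, 8.71 and 7.61 in MDS/MPN and 7.22 undetermined, against 10.77 in WT. All 8 KO arrays were below the WT array of their slide, by as much as -3.55. On this probe the MDS/MPN arrays all lay below the MDS arrays, as they did for 12% of all features with 1 probe per feature. It was the only one of 168 member probes below WT on all 8, as 5.40% of all 26180 probes were, and 0 were above WT on all 8, as 5.65% were.

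The other Rps24 probes did not follow. The probe of NM_207635 read 11.58 in KO and 11.52 in WT at 3 months. At 9-12 months it read 10.91 mixed, 10.91 and 10.78 in MDS, 11.04, 9.73 and 10.92 in MDS/MPN and 11.09 undetermined, against 10.90 in WT. The probe of NM_207634 differed from WT by 0.05 at 3 months, and by 0.15, -1.02 and 0.03 on the MDS/MPN arrays. Both fell with the block on MDS/MPN replicate 2 and stayed within 0.20 of WT elsewhere. With every probe as a feature, the NM_011297 probe differed by -2.41 ± 0.43 (SE) in MDS/MPN minus MDS, with an unadjusted p of 0.0016 and a limma adjusted p of 0.907. Here 0 of 167 member probes and 0% of 24343 probes were called, and 1 member probe, this one, had an unadjusted p under 0.05. Over all KO arrays it differed by -1.66 ± 0.996 (adjusted p = 0.960), with 0 of 168 member probes called and 0% of all probes. At 9-12 months it differed by -2.03 ± 1.23 (adjusted p = 0.9999), with 0 of 168 called against 0.538% of probes, and by -0.28 ± 0.30 with the MDS arrays alone. With the slide line as a block, which leaves the MDS arrays to be set against WT, it was also -0.28 (adjusted p = 0.9999). The probe was singled out after its values were seen, and the line of the slide cannot be told apart from MDS/MPN.

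Stem cell genes stood in nearly the same order as that probe. Their median over the 15 of 23 detected on all arrays was 2.30 in KO and 4.27 in WT at 3 months. At 9-12 months it was 3.21 mixed, 2.97 and 3.17 in MDS, 1.60, 2.32 and 1.39 in MDS/MPN and 0.58 undetermined, against 3.15 in WT. The undetermined and MDS/MPN replicates 3 and 1 were lowest and the 3-month WT array highest in both. Since the arrays form separate clusters, no correlation is given, and the part of cell composition was not tested. The 11 of 19 erythroid genes detected on all arrays had medians of 6.14, 1.80 and 5.29 in MDS/MPN, with replicate 2 low. In MDS they were 3.37 and 3.89, and 0.93 in WT at 9-12 months. Of the 16 erythroid genes tested, 8 were higher and 8 lower in MDS/MPN than in MDS, with a median of -0.08. The log2 of the summed signal of all 19 was 9.41, 7.27 and 8.97 in MDS/MPN and 9.04 and 9.46 in MDS.

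**Figure D4:**
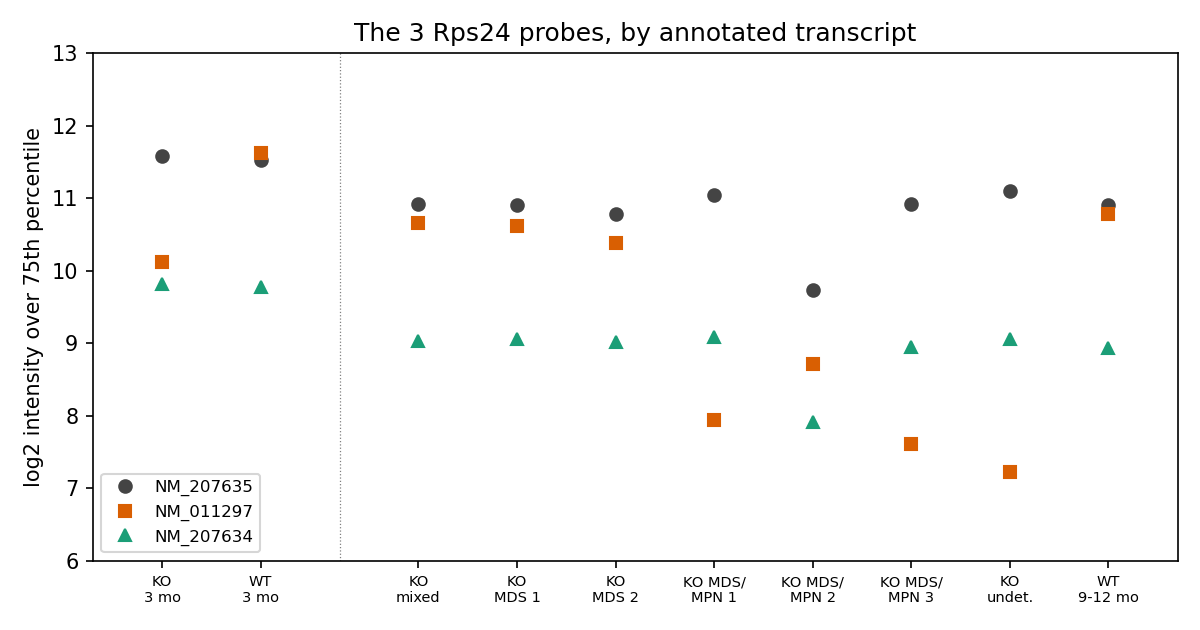
Log2 intensity over the 75th percentile (y axis, from 6) of the 3 Rps24 probes on the 10 arrays, by annotated transcript, with slide 1 left of the dotted line. The NM_011297 probe (squares) reads 7.22 to 8.71 on the MDS/MPN and undetermined arrays and 10.11 to 11.62 on the others, while the other 2 probes drop only on MDS/MPN replicate 2.

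Rpl22, which encodes a large subunit protein with tumour suppressor roles in mouse lymphocytes, also had probes for 2 transcripts. That of NM_009079 read 5.24 in KO and 5.86 in WT at 3 months. Later, at 9-12 months, values were 4.91, 4.51 and 4.73 in MDS/MPN and 4.84 on the undetermined array, below 5.56 and 5.36 in MDS, 5.61 on the mixed array and 5.52 in WT. MDS/MPN minus MDS was -0.75 ± 0.33 (limma adjusted p = 0.979). With 1 probe per feature, 12% of all features had their MDS/MPN arrays all below the MDS arrays. The line of the slide cannot be told apart from MDS/MPN here either. The brighter probe, of NM_001277114, was above WT on 3 of those 4 arrays. The second Rpl15 probe was below WT on 7 of 8 KO arrays. One Rpl21 probe separated the slides, with 3.46 in KO and 3.53 in WT on slide 1 and 0.03 to 0.46 in KO and 0.11 in WT on slide 2. Under the value-table labels, which compare across slides, it was the sole member probe called at 9-12 months (-3.30). These probes of Rpl22, Rpl15 and Rpl21 were also chosen after their values were seen.

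The rest of the translation machinery was set beside the 85 genes. In the third comparison 76 of 77 mitochondrial ribosomal protein genes, which build the separate ribosome of mitochondria, were higher in KO, with a median of 0.47. Of the 40 ribosome biogenesis genes 35 were higher, with a median of 0.54, and of the 27 initiation factors 24, with 0.29. The elongation and other TOP genes had 9 of 12 higher, with 0.13. The median of the features detected on all arrays was 0.13 too. In each list 0 genes were called (0% of all features were), and 3 biogenesis genes, but 0 of the other 3 lists, had an unadjusted p under 0.05. The medians of the mitochondrial list (0.23 to 0.47) and of the biogenesis list (0.34 to 0.54) kept their sign under all 5 scalings, whereas that of the cytosolic genes ran from -0.14 to 0.07 and that of the elongation list from -0.07 to 0.13. The difference between lists was not tested. Larp1, the TOP repressor, had the lowest adjusted p among the regulators (1.45 ± 0.53, adjusted p = 0.742), followed by Myc, an activator of ribosomal genes (0.97 ± 0.38, 0.798). Rrp12 and Nolc1, for pre-ribosome export and nucleolar assembly, differed by 1.36 ± 0.54 and 1.23 ± 0.53.

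By array, the mitochondrial genes were above WT on the 3-month KO array for all 77 detected, by 0.83 at the median. Their median difference was 0.07 on the mixed array, 0.11 and -0.27 in MDS (8 of 77 above WT on replicate 2), 0.75, -0.57 and 0.83 in MDS/MPN and 1.06 on the undetermined array. Biogenesis genes differed by 1.003 at 3 months, by 0.13 on the mixed array, by 0.26 and -0.14 in MDS (15 of 39 above WT on replicate 2), by 0.61, 0.04 and 0.65 in MDS/MPN and by 0.97 on the undetermined array. The cytosolic genes differed by 0.18 at 3 months, by 0.04 on the mixed array, by 0.11 and -0.06 in MDS, by 0.37, -1.04 and 0.36 in MDS/MPN and by 0.46 on the undetermined array. Fau and Rack1, ribosomal proteins that carry other names, had all-KO differences of 0.06 and 0.09.

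**Figure D5:**
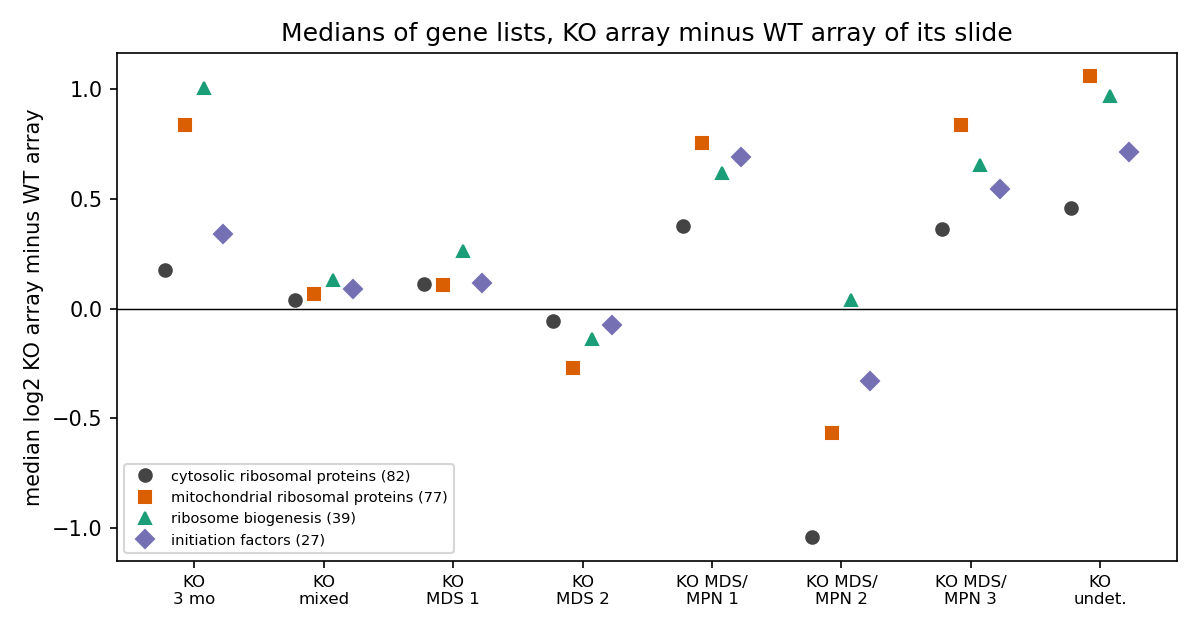
Median log2 difference (y axis) between each KO array and the WT array of its slide for the genes of 4 lists detected on all arrays, with their number in brackets. The mitochondrial and biogenesis lists reach 0.61 to 1.06 on the 3-month, undetermined and MDS/MPN replicate 1 and 3 arrays, where the cytosolic genes lie between 0.18 and 0.46.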

How the data were processed

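The scanner files that the authors deposited give a processed intensity for each spot, written by Feature Extraction (10.7.1.1 in the headers, 9.1 in the submitters' processing notes). The deposited value table holds a ratio of that intensity to the array's 75th percentile and was used for its time labels. Spots of a probe were averaged without control and outlier spots, divided by the array's 75th percentile and taken as log2 of the deposited intensity. Probes were named through RefSeq accessions (GRCm38.p6). A feature was tested when well above background on at least 50% of the arrays of a compared group. Tests used limma 3.58.1 (R 4.3.3) across all features with Benjamini-Hochberg adjustment and a threshold of 0.05, and the fit was tested on simulated data. Tables came from pandas 2.3.3 and numpy 2.4.6 and figures from matplotlib 3.10.9, in Python 3.11.15. Errors are SE. The number of arrays limits the precision.

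Members and lists were chosen with earlier results of these data known. Named members were, for each fit, up to 6 per direction with the largest called difference (where fewer than 3 were called, the next by p up to 3), the 3 highest and 3 lowest against the members' median, and the paralogs, the stalk, 5S, Rps14 and Rps19 genes. Of each other list, up to 3 called genes, or else the next 2 by p over all KO arrays, could be named. P-values measure only the spread between these samples, which may be technical. Some genes are not reported here.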

Additional observations from a re-analysis of the deposited data

Results flagged for a closer look

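MDS/MPN replicate 2 lay far below the other 5 KO arrays of single mice. For the median of the 85 genes, its gap to the next array was 0.688 of the range of the 6 arrays, above Dixon's critical value of 0.625. The same array was flagged low for 51 of the 85 genes, against 995 of the 14298 features detected on all arrays, where chance flags about 1 group in 20 and the genes are not independent. Among the named genes the ratios were 0.764 for Rps19, 0.734 for Rps3a1, 0.722 for Rpl5, 0.685 for Rplp2, 0.667 for Rps14, 0.661 for Rpl21, 0.636 for Rpl23 and 0.636 for Rplp0. Its 75th percentile was the highest of the 10 arrays, and its unscaled median of 17.20 lay within the range of the others.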

How the results depend on the processing

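No ribosomal protein gene was called in any of the 4 fits under any alternative, single array left out or scaling tried with 1 probe per gene, and 1 probe of Rpl21 was called with every probe as a feature and the value-table labels. The medians moved by less than the SD between the KO arrays (0.55 to 0.71), but most changed sign under some setting. That SD includes MDS/MPN replicate 2, which lay at -1.04 from WT. It is therefore a wide scale and does not show that the medians are stable. Leaving out 1 array gave -0.04 to 0.24 for the 6 KO arrays against WT, -0.37 to 0.35 for MDS/MPN against MDS, 0.02 to 0.18 for all KO arrays and -0.23 to 0.08 for the difference of the KO effects. MDS/MPN replicate 2 gave the highest value each time. Other settings gave -0.50 to 0.15, -0.29 to -0.08, -0.16 to 0.07 and -0.53 to 0.25. Quantile normalization turned the 3-month pair to -0.04 and the percentile over detected probes turned it to -0.20.

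In all, 5 differences of single genes reversed, all under the value-table time labels: Rpl6 at 9-12 months (-0.52), and Rpl21 (-1.22), Rpl22l1 (-1.34), Rpl7l1 (0.78) and Rps4l (-1.09) in the difference of the KO effects, where the labels exchange the arrays compared. Rpl39l over all KO arrays was -0.39 with normexp, since it lies near background. For the Rps24 probe of NM_011297, 10 alternatives gave -2.73 to -2.17 in MDS/MPN minus MDS with adjusted p of 0.115 to 0.9999, 17 gave -2.04 to -1.47 over all KO arrays, 14 gave -2.87 to -0.28 at 9-12 months (-0.28 with the slide line as a block and with the MDS arrays alone) and 12 gave -2.75 to -0.14 for the difference of the KO effects. The unscaled setting, centring on the 85 genes, the MDS arrays alone, the slide line as a block, leaving out a WT array and single probes as features were added after seeing the data. No paired analysis was possible because the groups compared share no replicate numbers that pair samples.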
